A study of Mus musculus with 6 samples.

Results

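The genes described here make sterols and fatty acids, or control that synthesis. They were 35 named genes, a sterol branch of 22 and a fatty acid branch of 13, and all 35 were found among the 24346 gene symbols of the deposited table. The series holds kidney RNA-seq libraries of C57BL/6 mice, 3 after a surgery labelled IVCC and 3 after Sham surgery. The study is about renal congestion and acute kidney injury, and this comparison asks what IVCC surgery does to kidney transcripts. Strain and tissue are shared by both groups. IVCC is not spelled out in the labels, which give no age, sex or time after surgery. Nor do they say whether each replicate was an animal of its own, so standard errors cover the spread between these libraries, which may be technical. Values are FPKM, read fragments per length of transcript and per mapped total, so levels may be compared between genes per length.

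Cells build cholesterol from acetyl-CoA through mevalonate, squalene and lanosterol. The transcription factor SREBP2, encoded by Srebf2, drives the genes of that route, and SREBP1, encoded by Srebf1, drives more of the genes that make, desaturate and elongate fatty acids. Both factors are escorted out of the endoplasmic reticulum by SCAP when sterols are low, and are held there by the INSIG proteins when sterols are plentiful. Kidney tubule cells make cholesterol for their membranes and burn fatty acids for most of their energy.

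The list was put together because Cyp51 and Scd1 had been seen to be lower in IVCC. The same IVCC against Sham difference therefore chose the members, and it is given below as a description with no test. Log2 fold changes are IVCC minus Sham from a limma fit of log2(FPKM + 1) over the 12090 genes that averaged 1 FPKM or more. All 35 members passed that filter. limma called 0 of the 12090 genes at an adjusted p under 0.05 (0%), and 0 members. At an unadjusted p under 0.05 the fit had 431 genes (3.56%), against 445 without the variance trend and 430 with the robust fit, and those fits also called 0 after adjustment.

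FPKM hide the depth. Nominal depth was taken as the total at which the largest share of low values came to a whole number of reads. It was 8210000 to 9120000 reads for IVCC libraries and 6120000 to 7160000 for Sham libraries. Even then only 59.8% to 63.5% of those low values were whole reads within a tolerance of 0.1, which some values meet by chance. At those sizes Stard4 rested on the fewest reads, 18 to 74 per library, with a counting error of 23.6% at its lowest, and Elovl6 rested on 50 to 83 and Me1 on 4632 to 6717. The libraries numbered 3 stood apart from the others of both groups, as described further on. Markers of proximal tubule, such as the phosphate transporter gene Slc34a1 at 2465 ± 101.5 FPKM after IVCC and 2184 ± 66.2 FPKM after Sham (SD, n = 3 each), were abundant, as the kidney label has it. Of the 4 proximal tubule markers, 3 had higher fitted values in IVCC and Slc22a6 was lower, at -0.08. Groups overlapped for all of them but Slc34a1, where 4.09% of all tested genes were higher without overlap. Bulk tissue cannot tell fewer cells of a type from less RNA per cell. Both podocyte markers and both fibroblast markers had higher fitted values in IVCC. Their summed levels were 19.9 to 36.8 FPKM after IVCC and 14.0 to 18.6 FPKM after Sham for podocytes, and 8.89 to 9.82 FPKM after IVCC and 4.04 to 6.94 FPKM after Sham for fibroblasts. Both endothelial markers were higher too, with sums of 21.2 to 25.7 FPKM after IVCC and 13.1 to 19.3 FPKM after Sham. Taken singly, the podocyte marker Nphs1 and the endothelial marker Kdr overlapped between the groups. The macrophage markers were split, with log2 fold changes of -0.37 for Csf1r and 0.42 for Adgre1. Thick ascending limb, distal convoluted tubule and collecting duct each had 1 marker higher and 1 lower. The part of these cell types in the differences below was not tested.

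Cyp51, the lanosterol demethylase that takes the first step after lanosterol, was listed at 44.3, 42.7 and 46.3 FPKM in the IVCC libraries, against 69.6, 80.2 and 72.4 FPKM in the Sham libraries. The groups were 23.3 FPKM apart at their nearest values. The mean was 44.5 ± 1.80 FPKM after IVCC and 74.1 ± 5.45 FPKM after Sham (SD, n = 3 each), with a log2 fold change of -0.72 (standard error, SE, 0.11). Scd1, the stearoyl-CoA desaturase that makes monounsaturated fatty acids, was listed at 21.8, 25.1 and 28.8 FPKM after IVCC, against 36.8, 43.1 and 42.1 FPKM after Sham. Its nearest values were 8.02 FPKM apart, and the mean was 25.2 ± 3.50 FPKM after IVCC and 40.7 ± 3.35 FPKM after Sham. Its log2 fold change was -0.67 (SE 0.13). These are the values that chose the list. On mm10, Cyp51 spans chr5:4081145-4104746 and Scd1 chr19:44394455-44407879, both on the minus strand. Of the distinct 75-base stretches in the transcripts of Cyp51, the length of a read, 0% also occurred in another gene. For Scd1 the share was 3.24%, held in common with Scd3, Scd2 and 1 other annotated gene among the most frequent.

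Scd1 is a marker of fat as well as a lipogenic gene. The adipocyte genes Adipoq, Plin1, Lep and Cfd were listed at 0 in all 6 libraries. Of the 6 adipocyte markers only Fabp4, which capillary endothelium also expresses, passed the filter. The summed level of the list, nearly all of it Fabp4, was 74.8 to 139 FPKM after IVCC and 85.9 to 140.3 FPKM after Sham. Of the 4 markers of adrenal cortex, a steroid-making tissue beside the kidney, 0 passed the filter. Their summed level was 0.69 to 1.20 FPKM after IVCC and 0.858 to 1.16 FPKM after Sham, and Cyp11a1 and Cyp11b1 were listed at 0 throughout. A listed 0 may be an estimate that failed. The part of fat or adrenal tissue in the values of Scd1 and the other members was not tested.

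The members were listed as sterol targets of SREBP2 and lipogenic targets of SREBP1, so promoter boxes they share are not independent of that choice. Promoters of 5 genes are shown, and their sequence does not depend on the expression values. They are Cyp51 and the sterol genes Idi1 and Mvk, whose IVCC values also lay below all Sham values, with Hmgcs1, which holds a classical sterol response element, and Fasn from the fatty acid side. Each is the 250 bases before the transcription start from RefSeq on GRCm38.p6, the assembly that mm10 names, on the strand of the gene. The windows are chr5:4104698-4104947 (Cyp51, minus strand), chr13:8885356-8885605 (Idi1, plus strand), chr5:114444019-114444268 (Mvk, plus strand), chr13:119690101-119690350 (Hmgcs1, plus strand) and chr11:120824548-120824797 (Fasn, minus strand). Capitals mark every match on either strand to TCACNCCAC, the core of the sterol response element that SREBP binds, CACGTG, the E-box, CCAAT, the box of NF-Y, and GGGCGG, the box of Sp1.
Cyp51: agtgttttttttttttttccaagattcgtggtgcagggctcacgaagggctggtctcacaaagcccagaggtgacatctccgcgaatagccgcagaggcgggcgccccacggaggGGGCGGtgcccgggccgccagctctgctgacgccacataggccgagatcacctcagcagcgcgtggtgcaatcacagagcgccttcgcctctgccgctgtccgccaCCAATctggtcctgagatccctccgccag
Idi1: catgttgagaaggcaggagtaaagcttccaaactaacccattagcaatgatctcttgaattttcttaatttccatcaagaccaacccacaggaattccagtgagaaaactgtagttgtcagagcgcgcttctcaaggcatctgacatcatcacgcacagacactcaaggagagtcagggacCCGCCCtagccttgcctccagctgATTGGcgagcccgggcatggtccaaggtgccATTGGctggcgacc
Mvk: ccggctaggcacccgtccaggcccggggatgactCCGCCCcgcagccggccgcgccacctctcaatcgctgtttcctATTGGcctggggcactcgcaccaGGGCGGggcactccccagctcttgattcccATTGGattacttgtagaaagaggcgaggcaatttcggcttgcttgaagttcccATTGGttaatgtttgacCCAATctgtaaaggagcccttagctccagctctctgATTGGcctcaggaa
Hmgcs1: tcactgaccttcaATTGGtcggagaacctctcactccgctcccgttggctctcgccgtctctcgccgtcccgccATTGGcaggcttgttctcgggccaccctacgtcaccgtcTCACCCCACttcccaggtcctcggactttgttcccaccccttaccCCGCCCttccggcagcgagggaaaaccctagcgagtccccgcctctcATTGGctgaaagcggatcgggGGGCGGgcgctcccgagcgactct
Fasn: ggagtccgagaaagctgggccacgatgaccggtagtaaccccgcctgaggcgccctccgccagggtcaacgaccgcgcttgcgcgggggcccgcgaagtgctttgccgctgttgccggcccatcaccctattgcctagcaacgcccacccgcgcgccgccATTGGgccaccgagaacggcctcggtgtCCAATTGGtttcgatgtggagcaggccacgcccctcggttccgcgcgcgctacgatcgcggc

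The NF-Y box CCAAT was common in these promoters. NF-Y and Sp1 are known as partners of SREBP at sterol genes. The promoter table held 28 of the 35 members, and CCAAT lay in the window of 23 of them, 17 of 18 sterol genes and 6 of 10 fatty acid genes. The share was 82.1% of the members, against 40.2% of the 9191 tested genes with a promoter in the table and 33.8% of all 32851 promoters. In Mvk the box occurs 5 times, the nearest with its first base 14 bases before the start, and in Fasn the letters CCAATTGG hold a box on each strand, overlapping. GGGCGG lay in the window of 22 members (78.6%), against 63.5% of tested genes and 32.7% of all promoters. CACGTG lay in 6 members (21.4%), Hsd17b7, Insig1, Dhcr7, Sc5d, Scap and Elovl5, against 10% of tested genes and 6.02% of all promoters. TCACNCCAC lay in Hmgcs1 alone of the 28 (3.57%), as TCACCCCAC with its first base 137 bases before the start, against 1.34% of tested genes and 1.05% of all promoters. A match is only a match of letters, and a gene with more than 1 annotated start was counted once if any of its windows held the motif. Scd1, Scd2, Fads1, Stard4, Sqle, Fdps and Fdft1 are not shown or counted.

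The mevalonate steps lead from acetyl-CoA units to farnesyl diphosphate. All 6 of their genes had lower fitted values in IVCC in the main fit, with log2 fold changes of -0.39 to -0.05. Hmgcs1 and Pmvk, both at -0.05, were both at 0.12 under TPM scaling and changed sign under other settings too. Hmgcs1 was at 0.08 after quantile normalization and 0.04 without Sham replicate 2. Pmvk was at 0.14 after correction for transcript length and GC content, 0.10 without Sham replicate 3, 0.07 without both libraries numbered 3 and 0.06 without IVCC replicate 2. TPM scales each library to one common sum, and it put the median of all tested genes at 0.15 instead of -0.01, so Hmgcs1 and Pmvk then still lay below that median. Hmgcs1, which makes HMG-CoA, was the most abundant of the 22 sterol genes. It was listed at 219.3, 252.5 and 214.9 FPKM after IVCC, against 221, 271.5 and 221.6 FPKM after Sham, so the groups overlapped. Its log2 fold change was -0.05 (SE 0.14). Idi1, the isomerase that makes dimethylallyl diphosphate, was listed at 89.3, 98.6 and 80.3 FPKM after IVCC, against 110.5, 109.3 and 109.2 FPKM after Sham. Its Sham libraries were nearly alike and all 3 IVCC libraries lay below them, the nearest by 10.6 FPKM. Its log2 fold change was -0.30 (SE 0.12). It was -0.12 under TPM scaling and -0.20 after quantile normalization, with overlapping groups in both. Of its 75-base stretches, 20.7% also occur in other annotated genes (Gm13502 among them), so part of its value may be shared.

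Mvk, mevalonate kinase, was listed at 11.1, 8.76 and 9.46 FPKM after IVCC, against 11.7, 11.3 and 16.8 FPKM after Sham. IVCC lay below Sham by only 0.259 FPKM at the nearest values, and Sham replicate 3 was well above the other Sham libraries. The log2 fold change of Mvk was -0.39, and -0.22 without Sham replicate 3 or -0.20 without both libraries numbered 3. Mvd, the decarboxylase that makes isopentenyl diphosphate, averaged 45.7 ± 7.86 FPKM after IVCC and 57.3 ± 8.93 FPKM after Sham with overlap. Pmvk, the kinase between them, averaged 18.3 ± 2.47 FPKM after IVCC and 18.98 ± 3.71 FPKM after Sham. Fdps, which makes farnesyl diphosphate, averaged 39.2 ± 3.68 FPKM after IVCC and 44.8 ± 6.96 FPKM after Sham. Of its 75-base stretches 74.8% also occur in other annotated genes, and its value is uncertain. The summed level of the mevalonate genes was 430.6, 450.2 and 412.7 FPKM after IVCC, against 464.6, 493.9 and 487.7 FPKM after Sham, and that sum is dominated by Hmgcs1 and Idi1.

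**Figure D1:**
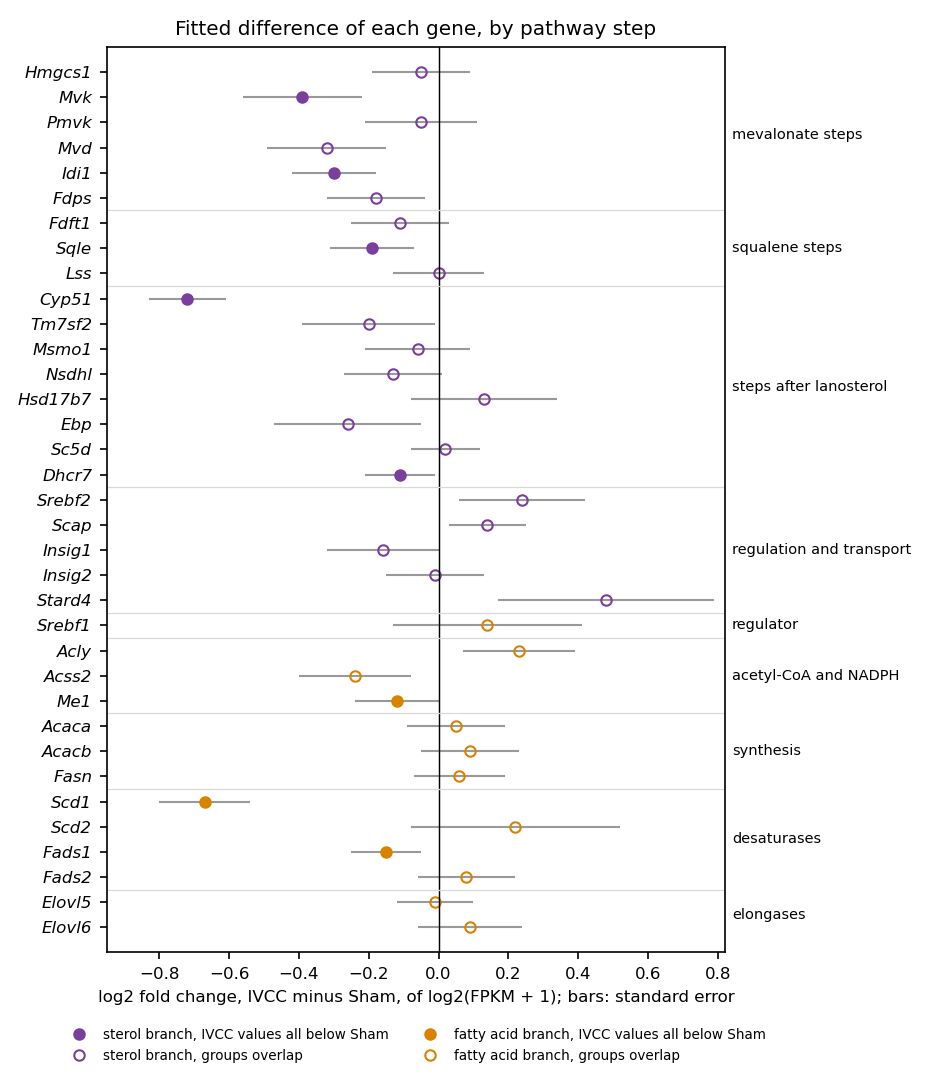
Fitted log2 fold change (IVCC minus Sham) of log2(FPKM + 1) for the 35 genes in pathway order, with standard errors from limma as bars; filled points are genes whose 3 IVCC values all lay below the 3 Sham values. Cyp51 at -0.72 and Scd1 at -0.67, which chose the list, lie apart from the other 33 genes, which lie between -0.39 and 0.48. Of the 35 points 21 lie below 0, against 51.6% of all tested genes. Under TPM scaling 10 would, against 21% of all tested genes.

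The squalene steps join farnesyl units and close the sterol ring. Sqle, squalene epoxidase and a rate-limiting step of the route, was listed at 28.4, 28.0 and 29.6 FPKM after IVCC, against 31.4, 37.8 and 29.7 FPKM after Sham. IVCC lay below Sham by 0.088 FPKM at the nearest values, and Sham replicate 2 was the high library. The log2 fold change of Sqle was -0.19 (SE 0.12), and -0.09 without Sham replicate 2. Fdft1, squalene synthase, averaged 13.1 ± 1.64 FPKM after IVCC and 14.2 ± 1.99 FPKM after Sham, and 6.07% of its stretches are shared with Gm6781. Lss, which makes lanosterol, averaged 4.75 ± 0.596 FPKM after IVCC and 4.71 ± 0.263 FPKM after Sham, a log2 fold change of 0.00 (SE 0.13).

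After lanosterol, 6 of 8 genes had lower fitted values in IVCC, counting Cyp51. Under TPM scaling Nsdhl was at 0.04, Dhcr7 at 0.05 and Msmo1 at 0.11, where the median of all tested genes was 0.15. The median log2 fold change of the 8 genes in the main fit was -0.12. Dhcr7, which makes cholesterol in the last step of the Kandutsch-Russell route, was listed at 10.2, 9.76 and 9.88 FPKM after IVCC, against 10.8, 11.5 and 10.3 FPKM after Sham. The groups did not overlap but were 0.09 FPKM apart, and the log2 fold change of Dhcr7 was -0.11 (SE 0.10). Ebp, the sterol isomerase, averaged 65.3 ± 14.7 FPKM after IVCC and 78.4 ± 17.9 FPKM after Sham. Tm7sf2, a sterol reductase, averaged 11.4 ± 2.59 FPKM after IVCC and 13.1 ± 2.16 FPKM after Sham. Nsdhl, the sterol dehydrogenase, averaged 48.5 ± 4.49 FPKM after IVCC and 53.4 ± 7.55 FPKM after Sham. The groups overlapped for each of these 3 genes and their differences were smaller than the larger SD. Msmo1, the methylsterol oxidase that acts after Cyp51, averaged 29.9 ± 5.13 FPKM after IVCC and 31.0 ± 2.67 FPKM after Sham, a log2 fold change of -0.06. Sc5d, a desaturase of the sterol ring, averaged 23.2 ± 0.411 FPKM after IVCC and 22.8 ± 1.15 FPKM after Sham. Hsd17b7, a ketosteroid reductase, averaged 5.05 ± 0.842 FPKM after IVCC and 4.62 ± 1.503 FPKM after Sham.

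The 5 genes that sense sterols or move them gave both directions, 3 with higher and 2 with lower fitted values in IVCC, and the groups overlapped for each. Under TPM scaling all 5 were higher, where only 21% of all tested genes were lower and the median of all tested genes was 0.15. After quantile normalization Scap was higher without overlap, where 8.76% of all tested genes had none in either direction. Srebf2 was listed at 20.9, 21.9 and 15.04 FPKM after IVCC, against 17.9, 17.0 and 13.1 FPKM after Sham. Replicate 3 was the lowest library in each group and the groups overlapped, with a log2 fold change of 0.24 (SE 0.18). Scap was listed at 23.0, 24.6 and 22.5 FPKM after IVCC, against 19.3, 21.2 and 23.0 FPKM after Sham, a log2 fold change of 0.14 (SE 0.11). Insig1, itself a SREBP target, was listed at 22.4, 22.5 and 17.0 FPKM after IVCC, against 26.4, 23.4 and 19.6 FPKM after Sham. Its log2 fold change was -0.16 (SE 0.16), and 0.01 under TPM scaling. Insig2 was listed at 19.9, 23.3 and 20.2 FPKM after IVCC, against 24.3, 22.1 and 17.9 FPKM after Sham, and its log2 fold change was -0.01 (SE 0.14). Stard4, a carrier of cholesterol between membranes, averaged 9.08 ± 3.29 FPKM after IVCC and 6.17 ± 2.18 FPKM after Sham. Its log2 fold change was 0.48 (SE 0.31), and 0.24 without Sham replicate 3, 0.28 without IVCC replicate 2 and 0.78 without IVCC replicate 3.

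**Figure D2:**
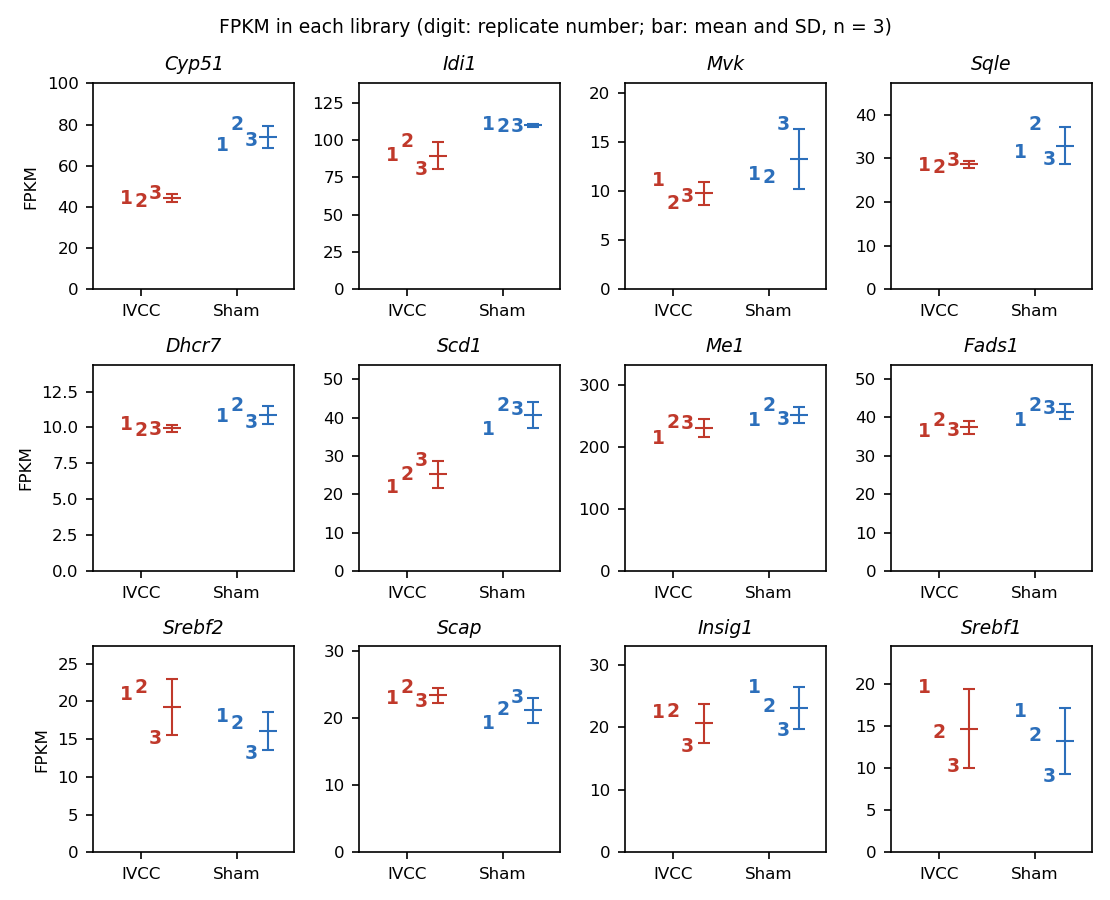
FPKM of 12 genes in each library, IVCC on the left and Sham on the right of each panel, with digits for the replicate number and a bar for the mean and SD (n = 3 each); each axis starts at 0. Cyp51 and Scd1 have IVCC values of at most 46.3 and 28.8 FPKM under Sham values of at least 69.6 and 36.8 FPKM, Idi1 has a gap of 10.6 FPKM, the other 5 genes without overlap have gaps of at most 1.95 FPKM, and Srebf1 and Srebf2 are lowest in replicate 3 of both groups.

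In the fatty acid branch, Srebf1 was listed at 19.6, 14.3 and 10.2 FPKM after IVCC, against 16.7, 13.9 and 8.99 FPKM after Sham. The groups overlapped and differed by less than their SD, with a log2 fold change of 0.14 (SE 0.27). Its direction turned with single libraries, to -0.08 without IVCC replicate 1 and -0.09 without Sham replicate 3, and it was 0.36 without IVCC replicate 3 and 0.32 without Sham replicate 1. Acly, which makes cytosolic acetyl-CoA from citrate, was listed at 47.9, 46.6 and 34.1 FPKM after IVCC, against 40.4, 36.2 and 31.99 FPKM after Sham, a log2 fold change of 0.23 (SE 0.16). Acss2, which makes acetyl-CoA from acetate, averaged 128.1 ± 13.6 FPKM after IVCC and 152 ± 27.6 FPKM after Sham with overlap. Me1, the malic enzyme that supplies NADPH, was the most abundant of the 35 genes. It was listed at 213.2, 240 and 238.3 FPKM after IVCC, against 241.9, 266.2 and 244.8 FPKM after Sham. The IVCC libraries lay below the Sham libraries by 1.95 FPKM at the nearest values, and its log2 fold change was -0.12 (SE 0.12). That of Me1 was 0.05 under TPM scaling, where the median of all tested genes was 0.15, and 0.03 after quantile normalization. Of the stretches of Me1, 17.6% also occur in other genes (Gm7049 among them).

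The enzymes that build the chain differed between the groups by less than their SDs. Fasn, fatty acid synthase, was listed at 10.6, 9.20 and 9.16 FPKM after IVCC, against 10.8, 8.91 and 8.22 FPKM after Sham, a log2 fold change of 0.06 (SE 0.13). The acetyl-CoA carboxylase genes Acaca and Acacb, which commit carbon to synthesis and to the control of oxidation, averaged 4.67 ± 0.763 and 3.68 ± 0.336 FPKM after IVCC. In Sham they averaged 4.45 ± 0.336 and 3.43 ± 0.557 FPKM. Of the stretches of Acaca, 47.4% are shared with Gm5182, so its level is uncertain. These 3 genes had fitted values of 0.05 to 0.09, and of -0.11 to -0.04 after correction for transcript length and GC content.

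Of the 4 desaturases, 2 had lower and 2 higher fitted values in IVCC. Under TPM scaling 1 was lower, where 21% of all tested genes were lower and their median was 0.15. Scd2, the near paralog beside Scd1 on chromosome 19, was listed at 35.2, 34.5 and 20.2 FPKM after IVCC, against 35.2, 25.4 and 17.0 FPKM after Sham. The groups of Scd2 overlapped and its log2 fold change was 0.22 (SE 0.30), where Scd1 had -0.67 with no overlap. The value of Scd2 rested on single libraries, at -0.04 without Sham replicate 3, 0.09 without IVCC replicate 1, 0.10 without IVCC replicate 2, 0.46 without Sham replicate 1 and 0.47 without IVCC replicate 3. Only 1.8% of the 75-base stretches of Scd2 occur in another gene. Fads1, the delta-5 desaturase of polyunsaturated fatty acids, was listed at 36.3, 39.2 and 36.6 FPKM after IVCC, against 39.2, 43.0 and 42.2 FPKM after Sham. The gap between the groups was 0.029 FPKM, smaller than the spread within either group, and the log2 fold change of Fads1 was -0.15 (SE 0.10), and 0.03 under TPM scaling. Fads2, the delta-6 desaturase beside Fads1, averaged 81.1 ± 11.9 FPKM after IVCC and 76.1 ± 4.35 FPKM after Sham. The elongase genes Elovl5 and Elovl6 averaged 28.7 ± 2.92 and 3.50 ± 0.642 FPKM after IVCC, and 28.9 ± 1.53 and 3.21 ± 0.183 FPKM after Sham, with log2 fold changes of -0.01 and 0.09.

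Over the whole list, all 3 IVCC values lay below all 3 Sham values for 8 of 35 genes (Cyp51, Idi1, Mvk, Sqle, Dhcr7, Scd1, Me1 and Fads1), and above them for 0. The background over the 12090 genes was 4.22% below, 4.09% above and 8.31% in either direction. Since the same contrast chose the list, nothing is read from that count. With each library left out in turn the count without overlap was 8 to 18, the highest without IVCC replicate 3, where 32.5% of all tested genes had none. Under TPM scaling Cyp51 and Scd1, which chose the list, were the 2 genes left without overlap, where 7.8% of all tested genes had none. Under median-ratio scaling Sqle and Dhcr7 overlapped, and 8.76% of all tested genes had no overlap. After quantile normalization Idi1, Sqle, Me1 and Fads1 overlapped and 6 members did not, Scap among them as higher. There too 8.76% of all tested genes had no overlap. Fitted values were below 0 for 21 of 35 genes, 16 of 22 in the sterol branch and 5 of 13 in the fatty acid branch, against 51.6% of all tested genes. Under TPM scaling 10 of the 35 were below 0, 8 of them sterol genes, against 21% of all tested genes, and 19 lay below the median of all genes. With 1 library left out, the sign of the fitted value changed in at least 1 case for Hmgcs1, Pmvk, Lss, Msmo1, Hsd17b7, Insig2, Srebf1, Acaca, Fasn, Scd2 and Elovl5, each with a value within 1 SE of 0 in the fit of all 6 libraries.

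The median log2 fold change was -0.11 in the sterol branch and 0.06 in the fatty acid branch, against -0.01 over all tested genes. Under TPM scaling these were 0.05, 0.22 and 0.15. Without IVCC replicate 3 the sterol median was -0.06 and the fatty acid median 0.15, and without Sham replicate 3 the fatty acid median was -0.02. The sterol median less the fatty acid median was -0.17, and it was -0.07 when Sham replicate 3 was left out and -0.10 when IVCC replicate 2 was. Leaving Cyp51 and Scd1 out, the medians were -0.11 and 0.07. In single libraries the median deviation of the 17 sterol enzymes from their own 6-library means was -0.02, -0.12 and -0.11 in IVCC, against 0.04, 0.05 and 0.21 in Sham. For all 22 sterol genes, with regulation and transport, it was 0.01, -0.03 and -0.14 in IVCC, against 0.04, 0.05 and 0.02 in Sham. For the fatty acid branch, with Srebf1, it was 0.10, 0.11 and -0.14 in IVCC, against 0.05, 0.00 and -0.11 in Sham. All 3 IVCC medians lay below the Sham medians for the sterol enzymes and for the 22 sterol genes, the nearest by little. Those of the fatty acid branch overlapped. The list was chosen on this contrast.

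**Figure D3:**
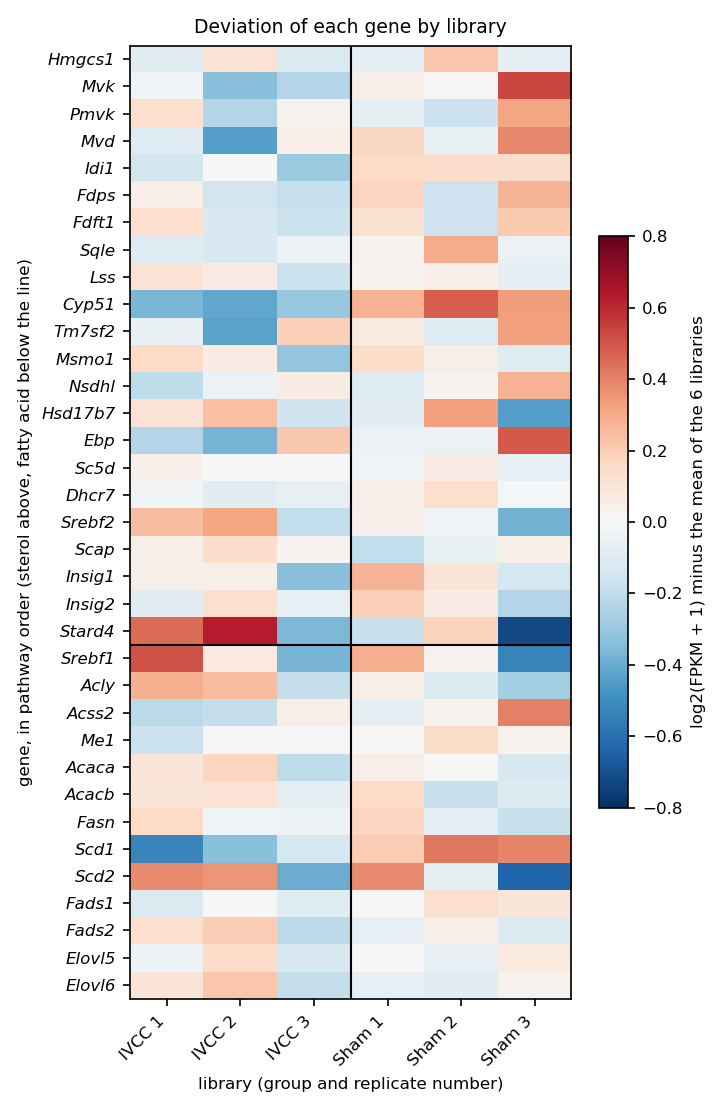
Deviation of each of the 35 genes from its mean over the 6 libraries on the log2(FPKM + 1) scale, with IVCC libraries left and Sham libraries right of the vertical line, and sterol genes above the fatty acid genes. Cyp51 and Scd1 are low in all 3 IVCC libraries, and Srebf1, Scd2 and Stard4 are low in replicate 3 of both groups.

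Transcript length differed between the branches. The median transcript was 2676 bases in the sterol branch and 4278 bases in the fatty acid branch. Over the 11647 tested genes with an annotated length, the IVCC minus Sham log2 fold change was higher for longer transcripts (Spearman's rho = 0.50 across genes, which are not independent replicates), and over the 35 members rho was 0.34. After a correction for length and GC content, chosen after the data had been seen, the branch medians were -0.10 and -0.04, and the difference between the branches was -0.06. Cyp51 was then at -0.80 and Scd1 at -0.78. That correction fitted length and GC content together, and the part of either in the difference between the branches was not tested.

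Within the groups, some members differed widely between the libraries numbered 3 and the others. On the log2 scale, replicate 3 minus the mean of replicates 1 and 2 was -0.90 in IVCC and -0.73 in Sham for Stard4. It was -0.76 in IVCC and -0.78 in Sham for Scd2, and -0.66 in IVCC and -0.70 in Sham for Srebf1. The sterol genes Srebf2, Insig1 and Hsd17b7 were lower there in both groups as well. Ebp, Tm7sf2 and Mvd went the other way, with 0.52 in IVCC and 0.54 in Sham for Ebp. In all, 14 of 35 members had replicate 3 as the lowest library of both groups and 5 as the highest. These were 40% and 14.3% of the members, against 23.5% and 32.4% of all tested genes. Over all tested genes, longer transcripts were lower in the libraries numbered 3 (rho = -0.56 with length across genes in each group), and over the members rho was -0.28 in IVCC and -0.38 in Sham. The part of length in the members' values was not tested gene by gene.

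**Figure D4:**
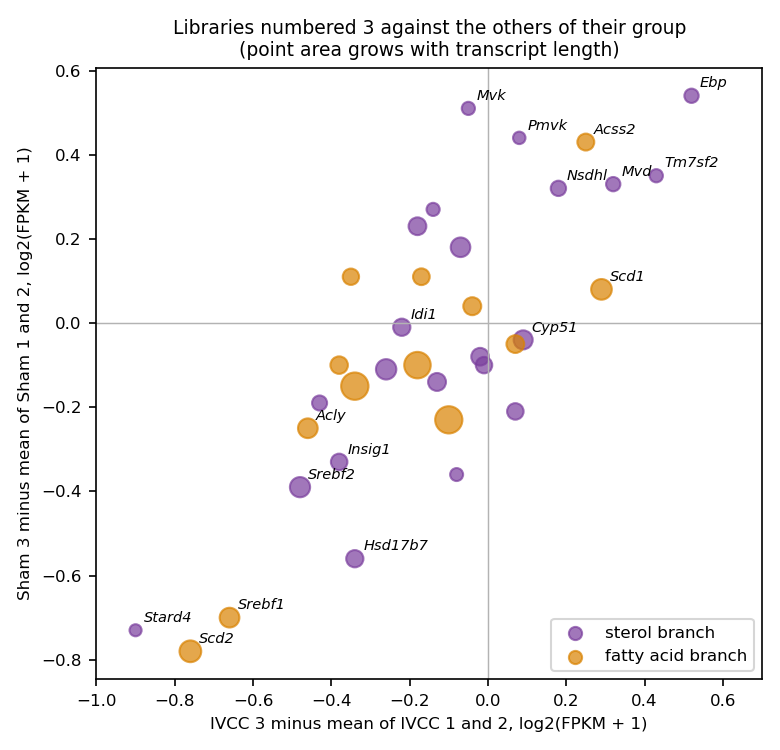
For each of the 35 genes, replicate 3 minus the mean of replicates 1 and 2 on the log2(FPKM + 1) scale, IVCC on the horizontal and Sham on the vertical axis, with point area growing with transcript length. Stard4, Scd2 and Srebf1 lie at the lower left and Ebp and Tm7sf2 at the upper right, while Cyp51 lies near 0 in both (0.09 and -0.04).

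How far the genes varied together within groups depended on the scaling. After the group means were removed, the mean pairwise correlation over the 6 libraries was 0.01 over the 231 pairs of sterol genes and 0.12 over the 78 pairs of fatty acid genes, against 0.012 over all pairs of tested genes. Single pairs lay between -0.99 and 0.99, and all pairs share the depth and composition of the same 6 libraries, with 2 group means removed. Under TPM scaling the means were 0.49 for the sterol genes and 0.76 for the fatty acid genes. That scaling divides each library by its summed FPKM, 719896 to 1118258, which shifts all genes of a library together. The mean over all pairs of tested genes under TPM scaling is not given here. The higher means therefore have no background, and nothing is read from them.

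Other genes of these pathways, from lists that do not contain the members, gave both directions. Of 14 other sterol genes, 8 had higher and 6 lower fitted values in IVCC, with a median log2 fold change of 0.04, and limma called 0. Their groups did not overlap for 2 genes, both higher, where 4.09% of all tested genes had no overlap in that direction and 8.31% in either. Mbtps1, which encodes the site-1 protease that cuts SREBP, was listed at 22.3, 24.3 and 23.3 FPKM after IVCC, against 22.2, 21.1 and 21.8 FPKM after Sham. Rdh11, a retinol dehydrogenase known as a SREBP target, was listed at 10.3, 9.48 and 9.75 FPKM after IVCC, against 9.44, 6.45 and 8.18 FPKM after Sham. For both the nearest values of the groups were almost equal. Of 25 other fatty acid genes, 21 passed the filter, 9 with higher and 12 with lower fitted values and a median of -0.02, and 0 were without overlap. Of 11 genes of the sterol sensor LXR and of cholesterol handling, 8 had higher and 3 lower fitted values, with a median of 0.09 and 0 without overlap. limma called 0 genes in either list.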

How the data were processed

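Total RNA of mouse kidney was extracted with TRIzol and columns, made into stranded mRNA libraries and read as single 75-base ends, per the labels' protocols. The authors deposited FPKM for all 6 libraries in a single table. Per the submitters' processing notes, the build was mm10 and the tools, whose roles are unstated, included Cufflinks 2.2.1, TopHat2 2.0.13, SAMtools 0.1.19 and Bowtie2 2.2.3. Annotation, filters and scaling: not given in the sources used here. A value of 0 may be an estimate that failed.

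The deposited FPKM were put on the log2(FPKM + 1) scale, which understates the change of low genes. Genes averaging 1 FPKM or more were fitted with limma 3.58.1 in R 4.3.3 (eBayes with a mean-variance trend, two-sided, Benjamini-Hochberg over all tested genes, threshold 0.05). The fit was tested on simulated data. With 3 libraries a group the smallest exact permutation p is 0.1. Transcript length and 75-base sharing come from GENCODE M21, which 96.3% of tested genes matched. Nominal depth assumes fragments of 200 bases.

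The members and lists were chosen with earlier results of these data known. Values per library are given for Cyp51 and Scd1, the members without overlap, the regulators, and the first and last enzymes of each branch. Other pathway genes are named where their groups do not overlap. Other settings were pseudocounts of 0.1 and 5, other filters and scalings (TPM, median ratio, quantile), eBayes without the trend or robust, the replicate block and each library left out. A length and GC correction was added after the data had been seen. Protein sequences were not used here.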

Additional observations from a re-analysis of the deposited data

How the results depend on the processing

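Depth, estimated only nominally, and 3 libraries per group limit what can be told apart. The planned protein identity between paralogs was not run. Pseudocounts of 0.1 and 5, the filter at 5 FPKM, median-ratio scaling, quantile normalization and limma without the trend or robust kept the branch medians within 1 SD of the libraries and the counts of members within 1.5 times. TPM scaling moved the sterol median to 0.05, the fatty acid median to 0.22 and the members below 0 to 10. It left 2 members without overlap, where 7.8% of all tested genes had none. TPM scaling changed the sign of 11 members, while the median of all genes was 0.15. Quantile normalization changed the sign of 5 members. Genes called over the whole table were 23 with no filter, 4 without both libraries numbered 3, and 0 to 4 with each library left out (4 without IVCC replicate 3, 3 without IVCC replicate 2, 2 without IVCC replicate 1 and 1 without Sham replicate 2). Members without overlap were 20 without both libraries numbered 3, where 40.7% of all tested genes had none. They were 8 to 18 with each library left out. The share of all tested genes was then 12.1% without IVCC replicate 1 and up to 32.5% without IVCC replicate 3. Fewer samples make overlap rarer, but each of these fits left out 1 library, so that range went with which library it was. The difference between the branches was -0.21 to -0.07 with each library left out. After the length and GC correction it was -0.06, and the same with the replicate block added, where 1 gene was called in all. Deviations of same-numbered libraries correlated at -0.11, 0.34 and 0.32 for numbers 1, 2 and 3. Those of different-numbered libraries correlated at -0.37 to 0.07. The main fit did not take the numbers as pairs, and whether same-numbered libraries share a source of variation was not tested. With the replicate block alone the log2 values of the members stayed as they were and 0 genes were called. In that limma fit 2388 genes had an unadjusted p under 0.05, against 431 in the main fit. Over these 19 alternatives Cyp51 lay between -0.80 and -0.55 and Scd1 between -0.78 and -0.50. The causes of these shifts were not tested beyond what is stated.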

Other observations

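Gpam, which encodes the acyltransferase that starts glycerolipid synthesis, was chosen for mention after its values were seen. It was listed at 13.4, 19.4 and 8.82 FPKM after IVCC, against 8.50, 8.90 and 5.46 FPKM after Sham. Its log2 fold change of 0.75 was the largest among the 21 other fatty acid genes tested, and IVCC replicate 3 overlapped the Sham libraries.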
